A study of Mus musculus with 8 samples.

Results

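The FoxO transcription factors and a set of genes linked to them were examined in hippocampal neurons treated with melanin-concentrating hormone (MCH). The 10 genes were the 4 factors *Foxo1*, *Foxo3*, *Foxo4* and *Foxo6* and the 6 genes *Txnip*, *Pik3ip1*, *Sesn1*, *Sesn3*, *Ddit4* and *Irs2*. They were taken by name out of 45706 genes in the deposited table, with earlier results of these data known. All 10 were among the 14962 genes that passed the filter on low counts.

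FoxO factors are forkhead proteins that carry out part of the response of a cell to low trophic support. Insulin and growth factors act through PI3K and the kinase Akt, which phosphorylates FoxO proteins so that 14-3-3 proteins hold them outside the nucleus. When that signal falls, FoxO proteins enter the nucleus and raise genes of cell-cycle arrest, stress resistance, autophagy and insulin sensing. In neurons they are known for roles in survival, in dendrite shape and in memory. RNA-seq reads the transcripts of the factors and of their targets, and not where the proteins are.

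Neurons were taken from C57/Bl6 wild-type mice at embryonic day 18 and collected after 12 to 14 days in vitro. The methods describe 2 cultures, each with 2 wells of control vehicle (H2O) and 2 wells of 1 µM MCH peptide, both given for 4 h, in medium that held insulin. This gave 4 wells of each treatment, numbered 1 to 4, and the culture of each well is not stated in the labels. A label also names an Alzheimer's disease model, although the genotype entry is wild type for every well. *P* values measure the spread between these wells, and wells from the same culture are not independent animals. The comparison asks whether genes that rise with low activity or low trophic signaling rose with MCH.

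Library totals ranged from 26083936 to 31844861 estimated counts per well. Replicates 1 and 2 of both treatments stood apart from replicates 3 and 4 on the leading principal component of log2 CPM, which held 59.8% of the variance once treatment means were removed. These sets of 4 wells are called side A and side B. They were read from the counts. Neuron markers such as *Map2* and *Slc17a7* were high in every well, and the summed level of 10 neuron markers was 9000 to 9830 CPM (counts scaled to library size) with vehicle and 8820 to 9860 CPM with MCH. Summed astrocyte markers ran from 1100 to 2560 CPM with vehicle and from 1170 to 2710 CPM with MCH. On side A they were at 1100 to 1220 CPM, and on side B at 2370 to 2710 CPM. Markers of the oligodendrocyte lineage summed to 68.3 to 170.0 CPM per well, with *Sox10* and *Mog* at 0 counts throughout. Microglia markers summed to 26.7 to 41.2 CPM, with *Tmem119* at 3 counts or fewer in every well. Markers of fibroblasts and vessels summed to 19.3 to 26.3 CPM on side A and to 56.8 to 63.3 CPM on side B. In such bulk samples, fewer cells of a type and less RNA per cell cannot be told apart. *Fos*, the immediate early gene used as the activity reference of the series, fell from 62.7 ± 7.09 to 33.4 ± 2.36 CPM (SD, n = 4 wells) with MCH, or by 0.91 on the log2 scale (edgeR adjusted *P* = 0.00492).

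Promoter sequences were available from RefSeq (GRCm38.p6) for 8 of the 10 genes, as 9 windows because *Sesn1* has a pair of start sites. These RefSeq start sites do not always match the GENCODE gene spans given below. The *Pik3ip1* window lies inside the span of that gene, which begins at 3330401, and so do the windows of *Sesn1* and *Sesn3*. Those of *Foxo3* and *Ddit4* lie partly inside. The *Irs2* window, from 11008930 to 11009179, stands clear of its span, which ends at 11008458. The 250 bases before each RefSeq start site were searched on both strands for the forkhead motif GTAAACA. *Txnip* alone among these 9 windows held it, against 3.17% of 32851 windows across the genome. In the *Txnip* window the motif began 121 bases before the start site, on the strand of the gene. The windows of *Txnip* (chr3:96557707-96557956, plus strand) and of *Pik3ip1* (chr11:3330481-3330730, plus strand) are printed 5′ to 3′, the first because it holds the motif and the second because *Pik3ip1* had the highest fold change of the 10 genes without a correction for transcript length. Capitals mark the motif.

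Txnip: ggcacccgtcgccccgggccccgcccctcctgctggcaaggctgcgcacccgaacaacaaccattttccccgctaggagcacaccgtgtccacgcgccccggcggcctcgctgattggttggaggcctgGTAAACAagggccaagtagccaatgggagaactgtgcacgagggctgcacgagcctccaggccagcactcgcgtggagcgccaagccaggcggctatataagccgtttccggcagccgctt

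Pik3ip1: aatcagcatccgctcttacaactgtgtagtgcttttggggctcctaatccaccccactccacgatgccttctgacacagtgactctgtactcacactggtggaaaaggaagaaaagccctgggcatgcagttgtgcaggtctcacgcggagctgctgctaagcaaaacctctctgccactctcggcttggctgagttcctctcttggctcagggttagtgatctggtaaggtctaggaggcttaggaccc

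The other motifs searched were CAAAACA, known from insulin response elements, the E-box CACGTG and the cAMP response element TGACGTCA. CAAAACA was found in 5.56% of all windows, CACGTG in 6.02% and TGACGTCA in 1.55%. Among the members, *Irs2* held the first, on the opposite strand and beginning 37 bases before its start site, and also CACGTG, beginning 44 bases before it. None of the 9 windows held TGACGTCA. Such matches are letters in a window and not measured sites of binding.

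Levels were compared between genes per length, as TPM (transcript abundance scaled to length and library size) over the 8 wells. *Ddit4* was highest, at 113 ± 4.01 TPM (SD, n = 8 wells), with every well above every well of the other 9 genes. *Sesn3* (34.4 ± 5.34 TPM), *Pik3ip1* (27.7 ± 7.87), *Irs2* (27.0 ± 2.73) and *Foxo6* (25.1 ± 5.65) followed, and the wells of each overlapped those of the next. Below them stood *Sesn1* at 17.1 ± 2.51, *Foxo3* at 15.2 ± 1.92, *Txnip* at 11.1 ± 4.62 and *Foxo1* at 8.08 ± 1.84 TPM, again with overlap between neighbors. *Foxo4* was lowest, at 3.82 ± 0.855 TPM, and its highest well (4.91 TPM) was below the lowest well of *Foxo1* (5.62 TPM). The order of the factors was therefore *Foxo6*, *Foxo3*, *Foxo1* and *Foxo4*. *Foxo6* and *Foxo3* overlapped only at the lowest wells of *Foxo6*, which reached down to 16.5 TPM against a highest well of 17.1 TPM in *Foxo3*. The place of *Pik3ip1* is less certain. A transcript of 2573 bases held 84.6% to 92.1% of its reads, but its effective length weighted by abundance was 1391 to 1779 bases. Its TPM thus depends on the smaller share of reads given to shorter transcripts.

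**Figure D1:**
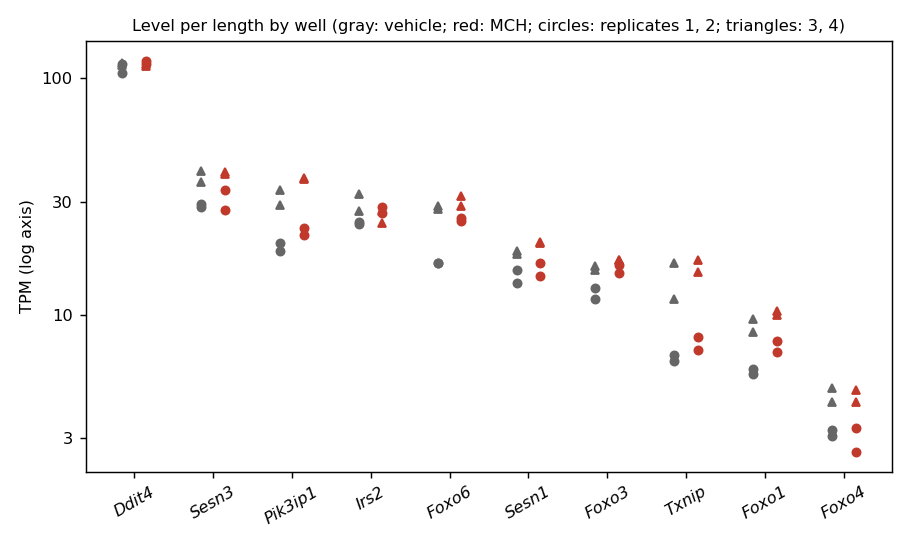
Level per length (TPM, log axis) of each gene in each well, vehicle in gray and MCH in red, circles for replicates 1 and 2 and triangles for replicates 3 and 4. *Ddit4* sits near 113 TPM, apart from the other 9 genes, and *Foxo4* is lowest at 2.63 to 4.91 TPM.

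With MCH, 8 of the 10 genes had a log2 fold change above 0, as did 49.0% of all genes tested. The median was 0.13 over the 10 genes and −0.0027 over all genes tested. None of the 10 passed an adjusted *P* value of 0.05 in edgeR's quasi-likelihood test, in which 0.234% of all genes were called. The adjusted *P* values ranged from 0.56 in *Foxo3* to 1.0. Without adjustment, *Foxo3* alone had a *P* value under 0.05 in edgeR, as 8.5% of all genes did, 4.28% with a higher level with MCH. DESeq2 (1.14% of all genes called, 0.501% higher) and limma-voom (31 of 14962 genes called) called none of the 10 either. *Foxo3* was again the single member with an unadjusted *P* value under 0.05 in DESeq2. The treatments overlapped in every member, whereas 6.03% of all genes had 4 MCH-treated wells all above or all below the 4 vehicle-treated wells.

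Pairs of wells are taken here by replicate number alone, as the labels do not state a pairing. A fit that takes the replicate number as a block compares each MCH-treated well with the vehicle-treated well of the same number. It called *Foxo1*, *Foxo3* and *Pik3ip1*, all higher with MCH, against 3.98% of all genes called, 1.73% higher and 2.25% lower. The fit with the side as a block called the same 3 genes, with 4.46% of all genes called and 1.85% called higher. DESeq2 with the replicate block, a fit chosen after seeing the data, also called them, with 1.86% of all genes called and 0.882% called higher. In these 3 genes both MCH-treated wells were above both vehicle-treated wells on each side, a pattern held by 7.25% of all genes. MCH was above vehicle in all 4 pairs for *Foxo1*, *Foxo3*, *Foxo6*, *Pik3ip1* and *Sesn1*, as in 11.5% of all genes.

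**Figure D2:**
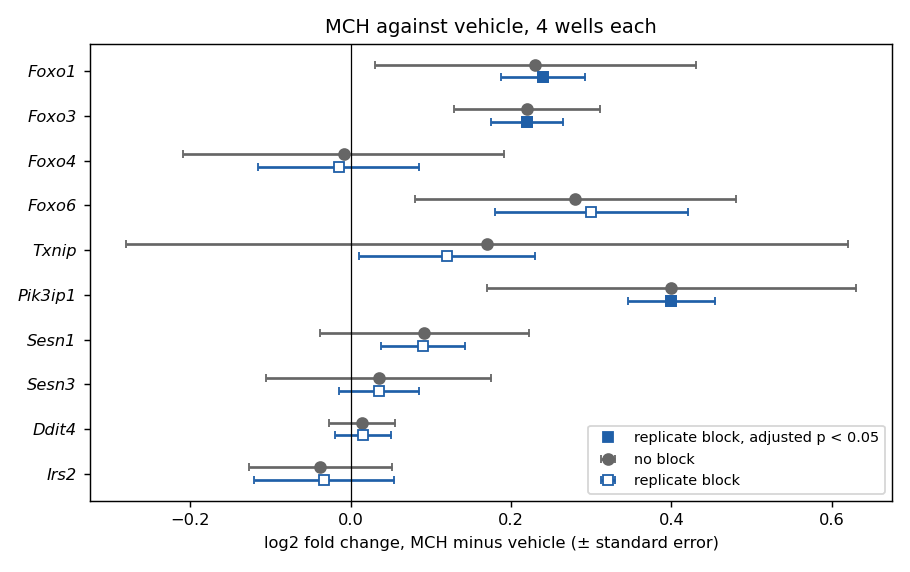
Log2 fold change of each gene with its standard error, from edgeR without a block (gray circles) and with the replicate number as a block (blue squares, filled where the adjusted *P* value is under 0.05). The estimates barely move between the fits, and the standard error of *Pik3ip1* goes from 0.23 to 0.054.

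*Foxo1* (ENSMUSG00000044167, chromosome 3 of GRCm38, 52268336 to 52353221, plus strand) encodes a factor best known for control by insulin. Vehicle-treated wells 1 to 4 held 29.5, 28.4, 47.3 and 42.1 CPM. MCH-treated wells held 38.0, 34.3, 48.9 and 51.0 CPM. Side B was higher than side A under both treatments, and within each side both MCH-treated wells were above both vehicle-treated wells. The means were 36.8 ± 9.36 and 43.1 ± 8.16 CPM, and the log2 fold change was 0.23 (SE 0.20, edgeR adjusted *P* = 0.86). With the replicate block it was 0.24 (SE 0.052, edgeR adjusted *P* = 0.0145), a fold of 1.18. A single transcript is annotated for it.

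*Foxo3* (ENSMUSG00000048756, chromosome 10, 42181841 to 42276755, minus strand) encodes the factor most often tied to neuronal survival and to the stress response. It stood at 49.7, 45.9, 61.0 and 59.2 CPM in vehicle-treated wells and at 62.1, 57.9, 65.7 and 65.1 CPM in MCH-treated wells. All MCH-treated wells except replicate 2 were above every vehicle-treated well. The log2 fold change was 0.22 (SE 0.091, unadjusted *P* = 0.0413 and adjusted *P* = 0.56 in edgeR), and the exact permutation test gave *P* = 0.114 (n = 4 wells, two-sided), where the smallest possible is 0.0286. With the replicate block, *Foxo3* rose by 0.22 (SE 0.045, edgeR adjusted *P* = 0.00849). The difference in mean log2 CPM was 0.33 on side A and 0.12 on side B, and the interaction of treatment and side was not called (edgeR adjusted *P* = 0.596, with 0.0267% of all genes called). A single coding transcript of 6848 bases held 99.4% or more of its reads in every well.

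*Foxo6* (ENSMUSG00000052135, chromosome 4, 120267079 to 120287349, minus strand) encodes the factor enriched in brain, which unlike the others stays largely nuclear. Vehicle-treated wells held 23.2, 23.6, 39.98 and 39.2 CPM, and MCH-treated wells 34.3, 35.4, 43.6 and 39.5 CPM. On side A the MCH-treated wells were well above the vehicle-treated wells, whereas on side B they overlapped. The log2 fold change was 0.28 (SE 0.20, edgeR adjusted *P* = 0.799) and 0.30 with the replicate block (SE 0.12, edgeR adjusted *P* = 0.305). By side, the difference in mean log2 CPM was 0.57 and 0.066. The interaction of treatment and side was −0.51 (SE 0.093, edgeR adjusted *P* = 0.0744), the lowest adjusted value among the 10 genes, and did not pass the threshold.

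*Foxo4* (ENSMUSG00000042903, chromosome X, 101254528 to 101260873, plus strand) is the least expressed of the factors here. It had 5.0, 5.36, 7.47 and 7.21 CPM with vehicle and 4.47, 5.48, 6.82 and 8.14 CPM with MCH. The wells overlapped on both sides, and the log2 fold change was −0.0086 (SE 0.20, edgeR adjusted *P* = 1.0). With the replicate block it was −0.015 (SE 0.10, edgeR adjusted *P* = 0.962).

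**Figure D3:**
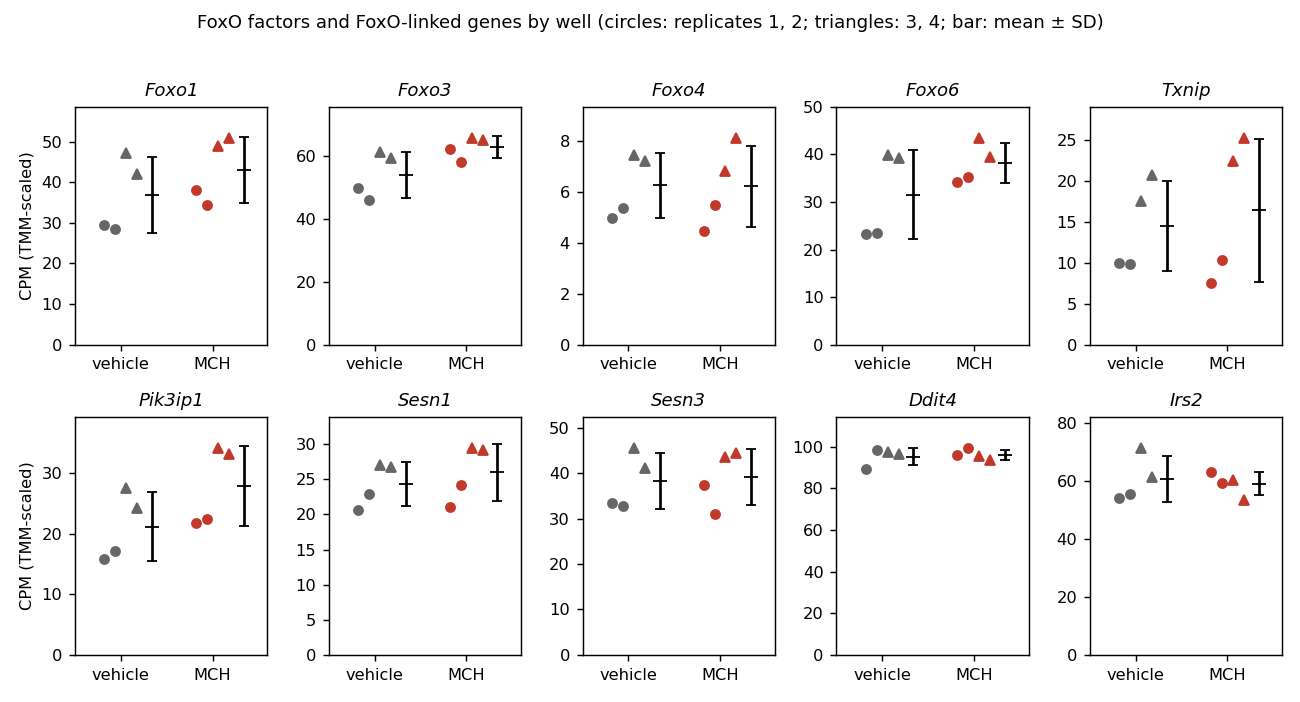
Expression of each gene in each well (CPM scaled with TMM factors), vehicle in gray and MCH in red, circles for replicates 1 and 2 and triangles for replicates 3 and 4, with the mean and SD of each treatment as a black bar. In *Foxo1*, *Foxo3* and *Pik3ip1* the MCH-treated wells are above the vehicle-treated wells among the circles and among the triangles, and in *Ddit4* all 8 wells lie between 89.1 and 99.5 CPM.

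*Pik3ip1* (ENSMUSG00000034614, chromosome 11, 3330401 to 3342971, plus strand) encodes a membrane protein that binds PI3K and inhibits it, upstream of Akt and FoxO. Vehicle-treated wells held 15.8, 17.2, 27.5 and 24.3 CPM, and MCH-treated wells 21.8, 22.5, 34.2 and 33.1 CPM. Every MCH-treated well was above the vehicle-treated well of the same number by 0.31 to 0.47 on the log2 scale. The means were 21.2 ± 5.63 and 27.9 ± 6.66 CPM. Without a block the log2 fold change was 0.40 (SE 0.23, edgeR adjusted *P* = 0.721), and the exact permutation test gave *P* = 0.171 (n = 4 wells, two-sided). With the replicate block *Pik3ip1* rose by 0.40 (SE 0.054, edgeR adjusted *P* = 0.000212), a fold of 1.32. By side, the difference in mean log2 CPM was 0.43 and 0.38.

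The reads of *Pik3ip1* were spread by salmon over several of its 10 annotated transcripts, with 84.6% to 92.1% on a coding transcript of 2573 bases. That transcript had 352, 402, 660 and 571 estimated reads in vehicle-treated wells and 617, 552, 873 and 834 in MCH-treated wells. A shorter transcript of 631 bases, annotated as a processed transcript, had 13.6 to 27.1 estimated reads with vehicle and 0, 0, 34.2 and 19.1 with MCH. Weighted by abundance, the effective length of the gene averaged 1415 ± 17.6 bases over vehicle-treated wells and 1614 ± 115 bases over MCH-treated wells. An offset for this length gave a log2 fold change of 0.23 (SE 0.25, edgeR adjusted *P* = 0.934). Adding the side as a block to this offset, which was chosen after the data were seen, gave 0.22 (edgeR adjusted *P* = 0.215). In that fit 0.282% of all genes were called, 0.0403% higher, and *Foxo6* had the highest log2 fold change of the 10 genes (0.32). *Foxo1* and *Foxo3* were not called in it either (edgeR adjusted *P* = 0.182 and 0.211), but their log2 fold changes were 0.25 and 0.21, against 0.24 and 0.22 with the side block alone. The effective length of *Foxo1* was 8415 bases in every well.

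*Irs2* (ENSMUSG00000038894, chromosome 8, 10984681 to 11008458, minus strand) encodes a docking protein of the insulin and IGF1 receptors. Vehicle-treated wells held 54.1, 55.6, 71.5 and 61.4 CPM, and MCH-treated wells 63.0, 59.3, 60.4 and 53.5 CPM. On side A both MCH-treated wells were above both vehicle-treated wells, and on side B both were below. The log2 fold change over all wells was −0.038 (SE 0.089, edgeR adjusted *P* = 0.994). By side, the difference in mean log2 CPM was 0.16 and −0.22, and the interaction was not called (edgeR adjusted *P* = 0.323).

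*Txnip* (ENSMUSG00000038393, chromosome 3, 96557957 to 96561883, plus strand) encodes an alpha-arrestin that binds thioredoxin and lowers glucose uptake. It had 10.03, 9.82, 17.6 and 20.8 CPM with vehicle and 7.54, 10.4, 22.5 and 25.3 CPM with MCH. All 4 wells of side B were above all 4 wells of side A, with a log2 difference of 1.19 (edgeR adjusted *P* = 9.57e-05), the highest among the 10 genes. Between treatments the log2 fold change was 0.17 (SE 0.45, edgeR adjusted *P* = 0.996). In CPM, MCH replicate 1 was below vehicle replicate 1 by 0.41 on the log2 scale, and the other 3 pairs were above 0. In TPM, which scales for length, MCH replicate 1 was above vehicle replicate 1, at 8.06 against 6.73 TPM. The direction of this pair thus depended on the measure. The effective length of the gene, weighted by abundance, ran from 1602 to 2569 bases over the wells. Reads were split between transcripts of 2827 and 2795 bases, whose shares ran from 43.3% to 84.0% and from 15.4% to 56.7%. The level of either alone is thus uncertain. In MCH replicate 1 these transcripts held 161 and 66.2 of 236 estimated reads. Their lengths are close, so the TPM of that well depends on the few reads given to shorter transcripts. The direction of the pair in TPM is therefore less certain than that in CPM.

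The sestrins *Sesn1* (ENSMUSG00000038332, chromosome 10, 41809935 to 41908424, plus strand) and *Sesn3* (ENSMUSG00000032009, chromosome 9, 14275067 to 14333101, plus strand) restrain mTORC1 when amino acids or trophic signals are low. *Sesn1* had 20.6, 23.0, 27.0 and 26.8 CPM with vehicle and 21.1, 24.2, 29.5 and 29.2 CPM with MCH. Its 4 pairs were all above 0, by 0.035 to 0.12 on the log2 scale, and its log2 fold change with the replicate block was 0.09 (SE 0.052, edgeR adjusted *P* = 0.389). *Sesn3* had 33.4, 32.8, 45.6 and 41.1 CPM with vehicle and 37.4, 31.1, 43.6 and 44.5 CPM with MCH. Its pairs went both ways, with a log2 fold change of 0.035 with the replicate block (SE 0.050, edgeR adjusted *P* = 0.784).

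*Ddit4* (ENSMUSG00000020108, chromosome 10, 59949669 to 59951834, minus strand) encodes REDD1, a stress-induced inhibitor of mTORC1. Its 8 wells lay close together, at 89.1, 98.3, 97.3 and 96.3 CPM with vehicle and 96.0, 99.5, 95.7 and 93.7 CPM with MCH. It was the most precisely measured of the 10 genes, with a log2 fold change of 0.014 (SE 0.041, edgeR adjusted *P* = 0.997). Sides also lay together, with a log2 difference of 0.00024 between side B and side A (edgeR adjusted *P* = 0.997).

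**Figure D4:**
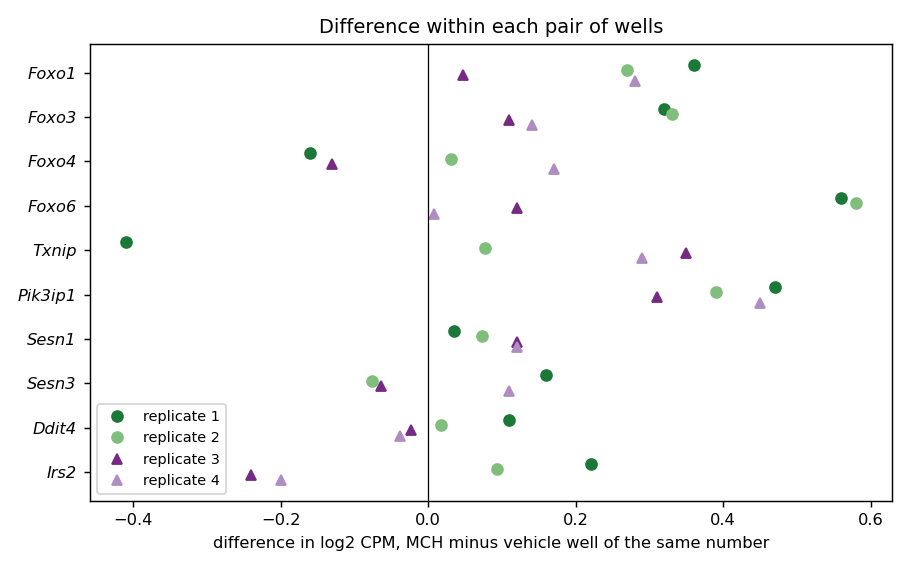
Difference in log2 CPM between the MCH-treated and the vehicle-treated well of the same replicate number, for each gene. All 4 pairs of *Pik3ip1* lie between 0.31 and 0.47, those of *Foxo6* part by side (0.56 and 0.58 against 0.12 and 0.0083), and those of *Irs2* lie on both sides of 0.

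Side differences ran through most of these genes. Of the 10, 8 differed between side B and side A (34.7% of all genes were called, 18.6% higher on side B) and all 8 were higher on side B, *Ddit4* and *Irs2* being the exceptions. Side B was 1.46-fold higher for *Foxo1* and for *Foxo4*, 1.41-fold for *Foxo6*, 1.17-fold for *Foxo3*, 1.54-fold for *Pik3ip1*, 1.27-fold for *Sesn1*, 1.30-fold for *Sesn3* and 2.29-fold for *Txnip*. All 10 astrocyte markers and 7 of the 8 tested markers of fibroblasts and vessels also differed between the sides, as did 5 of 7 tested markers of the oligodendrocyte lineage, 4 of 7 tested microglia markers and 6 of 10 neuron markers, none of the last higher on side B. The part of these cell types in the levels of the FoxO genes was not tested. With the replicate block the astrocyte marker *Slc1a2* rose (0.15, edgeR adjusted *P* = 0.0353, but 0.115 with the side as a block). The neuron marker *Gad1* fell (−0.10, edgeR adjusted *P* = 0.0349), and no other marker was called. The count of neuron markers called was 0 in DESeq2 with the replicate block and 0 with the side block and length offset. It was 0 to 2 with the side block when a well was left out, the 2 without vehicle replicate 3. The sides come from the same counts, so these tests use the counts more than once.

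The genes most like each member over the 8 wells were named by Pearson correlation of log2 CPM, as a description in which the wells share their side. *Irf1* (0.991), *Il17rd* and *Pdcd4* were nearest to *Foxo1*, and *Pou2f1* (0.989), *Igsf3* and *Nfia* to *Foxo3*. *Fmo1* (0.988), *Nkapd1* and *Ift122* were nearest to *Foxo4*, and *Efcab12* (0.986), *Gm12940* and *Spata33* to *Foxo6*. *Sstr1* (0.993), *Fzd7* and *Lrrn1* followed *Pik3ip1*, and *Spp1* (0.996), *Laptm5* and *Galk1* followed *Txnip*. *B230206L02Rik* (0.988), *Srd5a1* and *Trim30a* were nearest to *Sesn1*, and *Chst3* (0.991) and *Mki67* were among the nearest to *Sesn3*. The nearest genes to the pair without a side difference were *Cxxc1* (0.974), *Sema6b* and *Thra* for *Ddit4* and *Tfcp2l1* (0.980), *Rgl1* and *Ggnbp1* for *Irs2*.

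Beyond the 10 genes, 8 lists of the pathway and of other inputs to these genes were described by their counts. In the edgeR fit without a block, as reported for the members, none of their genes was called. Total-count scaling and the fit with no filter on low counts each called 1 glucocorticoid-responsive gene, as did the fit without MCH replicate 1, and the fit without vehicle replicate 3 called 2. DESeq2 without a block called *Mxi1*, *Pik3r1*, *Trib1*, *Arrdc3*, *Arrdc4*, *Per1*, *Klf9* and *Dusp1*. Of 35 other FoxO target genes, 29 were tested, 18 had a log2 fold change above 0 and the median was 0.0098. In the blocked fit 2 rose and 1 fell, or 10.3% of the list against 3.98% of all genes. With the side block the count was 4, with 2 higher and 2 lower. The count of 3 was 1 in DESeq2 with the replicate block and 0 with the side block and length offset. It was 2 to 7 with the side block when a well was left out, the 7 without vehicle replicate 3. The risers were *Ccng2*, an atypical cyclin of quiescent cells, from 32.7 ± 1.66 to 38.7 ± 3.02 CPM, and *Mxi1*, a Myc antagonist, from 54.1 ± 1.44 to 61.0 ± 1.85 CPM (edgeR adjusted *P* = 0.00645 and 0.0151 with the replicate block). *Cited2*, a coactivator that binds CBP and p300, went from 59.5 ± 4.56 to 52.5 ± 3.13 CPM (0.0321). At the ends of this list, *Fbxo32* and *Bcl2l11* had log2 fold changes of 0.44 and 0.26 without a block, and *Klf4* and *Eif4ebp1* of −0.46 and −0.20, none of them called in either fit. *Fbxo32* was low, at 0.732 CPM with vehicle and 0.994 CPM with MCH (SE 0.42), as was *Klf4*, at 1.47 and 1.07 CPM (SE 0.22).

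Among 29 genes of the insulin and PI3K-Akt pathway, all tested, the median log2 fold change was 0.014, and with the replicate block 2 rose and 3 fell, or 17.2%. The side block called 7, and with the length offset 1. *Igf1r*, the IGF1 receptor, went from 11 ± 1.74 to 15 ± 1.64 CPM, with a log2 fold change of 0.45 with the replicate block (SE 0.077, edgeR adjusted *P* = 0.00224). *Pik3r1*, the p85 regulatory subunit of PI3K, went from 118 ± 11.4 to 144 ± 6.41 CPM, with every MCH-treated well (137 to 152 CPM) above every vehicle-treated well (107 to 132 CPM). Its log2 fold change was 0.29 with the replicate block (SE 0.037, edgeR adjusted *P* = 0.000133). *Trib1*, a pseudokinase of the tribbles family, went from 18.3 ± 2.37 to 11.5 ± 2.91 CPM (−0.69, edgeR adjusted *P* = 4.83e-05 with the replicate block). *Sgk1*, a kinase that phosphorylates FoxO3 as Akt does, went from 72.6 ± 13.6 to 61.3 ± 10.1 CPM (−0.24, edgeR adjusted *P* = 0.00169 with the replicate block), and *Trib2* also fell. The Akt genes and *Insr* were not called with this block, and *Akt1* was at 171 ± 3.72 CPM with vehicle and 169 ± 2.77 CPM with MCH. *Inpp5d*, a lipid phosphatase at the low end of this list, had a log2 fold change of −0.28 without a block and was not called.

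None of the 24 tested regulators of FoxO proteins, out of 25 listed, was called with the replicate block, and their median was −0.018. *Ep300* and *Kat2b*, both acetyltransferases, were at its upper end with 0.18 and 0.14 without a block, and *Mdm2* and *Sirt2* at its lower end with −0.12 and −0.064. None of the 26 genes of the sestrin, GATOR and TSC-mTORC1 list was called with the replicate block either (median −0.018). With the side as a block 2 of them fell, *Sesn2* and *Rheb* (edgeR adjusted *P* = 0.0297 and 0.03), and 0 to 5 were called when a well was left out, the 5 without vehicle replicate 3. Its ends were *Tbc1d7* (0.19) and *Rragd* (0.11) above, and *Castor1* (−0.32) and *Eif4ebp1* below. *Castor1* was low, at 1.16 CPM with vehicle and 0.934 CPM with MCH (SE 0.54).

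Of 13 tested genes around *Txnip*, 9 had a log2 fold change below 0 and the median was −0.03, and with the replicate block 2 rose and 1 fell, or 23.1%. This count was 1 in DESeq2 with the replicate block, 0 with the side block and length offset, and 1 to 5 with the side block when a well was left out, 1 without vehicle replicate 2 or 4 and 5 without vehicle replicate 3. *Arrdc4*, the alpha-arrestin closest to *Txnip* in its control by glucose, went from 12.5 ± 1.20 to 16.1 ± 0.770 CPM, and every MCH-treated well (15.1 to 17.0 CPM) was above every vehicle-treated well (10.9 to 13.4 CPM). Its log2 fold change was 0.36 with the replicate block (SE 0.076, edgeR adjusted *P* = 0.0105). *Arrdc3* went from 59.3 ± 3.17 to 67.9 ± 2.77 CPM (0.20, edgeR adjusted *P* = 0.0214 with the replicate block). *Mlx*, the partner of the glucose-responsive factor ChREBP, went from 38.7 ± 4.66 to 33.4 ± 2.67 CPM (0.0164). *Arrdc2* and the glucose transporter gene *Slc2a1* had log2 fold changes of 0.26 and −0.16 and were not called.

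The last lists hold genes of other pathways that raise some of the 10 members. Among 15 p53 target genes, *Trp53inp1* rose with the replicate block, from 26.1 ± 6.80 to 31.9 ± 8.53 CPM (edgeR adjusted *P* = 0.00435), and the median without a block was −0.012. That is 6.67% of the list, and the count was 2 with the side block, 0 when the length offset was added, and 1 to 4 when a well was left out, the 4 without vehicle replicate 3. *Perp* (0.21 without a block), *Btg2* (−0.34) and *Sesn2* (−0.15) were not called with the replicate block. *Sesn2* was called with the side block (edgeR adjusted *P* = 0.0297). Among 18 genes of the integrated stress response, 15 had a log2 fold change below 0 and the median was −0.12. In the blocked fit 4 fell (*Ppp1r15a*, *Chac1*, *Slc3a2* and *Slc7a5*) and *Vldlr* rose, while *Slc7a11* and *Nupr1* were not called. These 5 are 27.8% of the list. The side block called 6, but DESeq2 with the replicate block called 1 and the side block with the length offset 0. With the side block and a well left out the count was 0 without vehicle replicate 2 or 4 and 1 without MCH replicate 2 or 4. It was 2 without MCH replicate 3, 3 without vehicle replicate 1, 6 without MCH replicate 1 and 7 without vehicle replicate 3. Among 14 glucocorticoid-responsive genes, with a median of 0.034, *Per1* fell from 139 ± 13.4 to 90.6 ± 11.7 CPM and *Dusp1* from 31.1 ± 2.83 to 22.9 ± 1.5 CPM. *Klf9* rose from 58.2 ± 3.22 to 67.9 ± 1.78 CPM (edgeR adjusted *P* = 1.49e-08, 0.000717 and 0.00426 with the replicate block). *Sgk1*, given above, also fell, which made 28.6% of the list called (1 gene with the side block and length offset), and *Hif3a* (0.11 without a block) was not called. *Per1* and *Dusp1* are also activity-regulated genes, so this list is not specific to glucocorticoids.

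**Figure D5:**
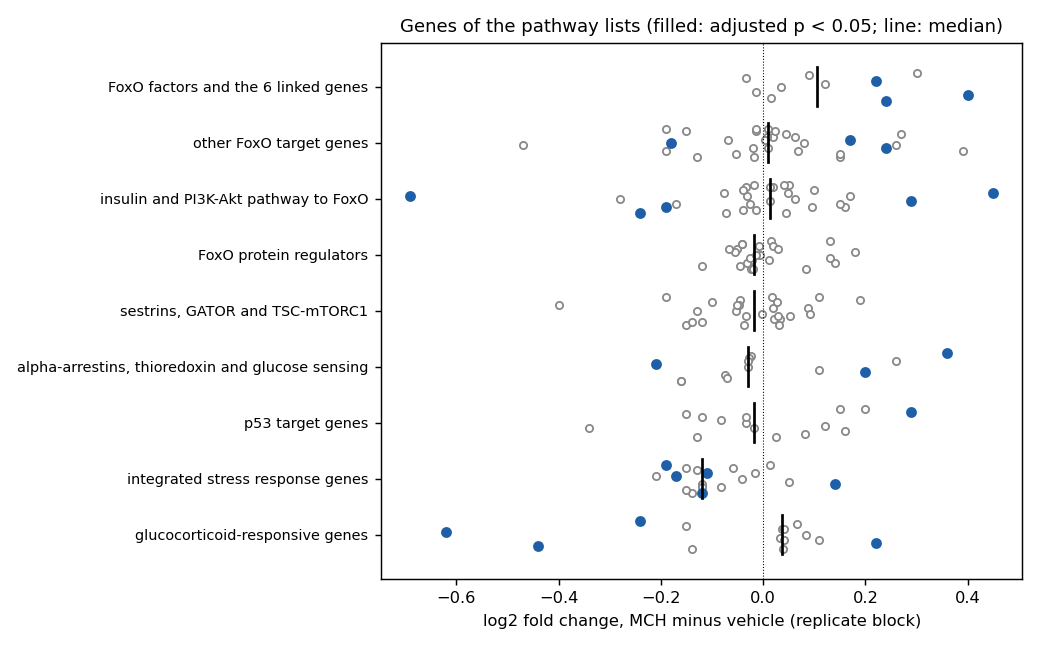
Log2 fold change with the replicate block of every tested gene of the 10-gene set and of 8 further lists, filled where the edgeR adjusted *P* value is under 0.05, with the median of each list as a line. The median of the 10-gene set is 0.11 and that of the integrated stress response list −0.12, and no gene of the lists of FoxO protein regulators and of sestrins, GATOR and TSC-mTORC1 is filled.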

How the data were processed

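The authors mapped and quantified reads of poly-A libraries on GRCm38 with salmon, run inside nf-core/rnaseq. The deposited gene table holds estimated counts, not scaled for depth, of which 9.13% are not whole, and the deposited transcript tables hold estimated counts, effective length and TPM as the authors' salmon run scaled them. The salmon version and annotation are not given in the sources used here. Identifiers were matched to GENCODE vM21, which named 45143 of 45706 genes. Groups come from the sample titles. The dose, days in vitro and number of cultures come from the paper's methods.

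Counts were rounded and tested in R 4.3.3 with edgeR 4.0.16 (TMM, filterByExpr with count minimum 10 and total minimum 15, robust quasi-likelihood F test), with Benjamini–Hochberg adjustment over 14962 genes and a threshold of 0.05. "edgeR adjusted *P*" refers to this test. The standard error is the log2 fold change over the square root of F. CPM use TMM factors. Permutation tests are exact over 70 assignments of log2 CPM (prior count 2). Alternatives were DESeq2 1.42.0, limma 3.58.1 (voom), other scaling and filters, a length offset and blocks.

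Replicate numbers are shared by the treatments. Deviations from treatment means correlated at 0.445 to 0.545 between wells of the same number, which passes the rule of a correlation over 0.1 used for pairing. Wells of unlike number within a side correlated at 0.475 to 0.521, so a number marks little beyond the side. The rule would pass any matching within a side, so it cannot show that wells of the same number belong together. The side is the sign of a well on the first principal component of these deviations.

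The 10 genes and the lists were chosen with earlier results of these data known. Genes outside the 10 are named where a list gene was called without a block, for the 3 smallest *P* values among genes called with the replicate block, for the 2 highest and 2 lowest log2 fold changes of a list, and for the 3 genes most correlated with a member. Some genes that this rule or a list holds are not reported here. Other names, such as *Trib2*, *Akt1*, *Slc3a2* and *Slc7a5*, were chosen after their values were seen.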

Additional observations from a re-analysis of the deposited data

Results flagged for a closer look

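*Irs2* moved in opposite directions on the sides. Both MCH-treated wells were above both vehicle-treated wells on side A and below them on side B, with a treatment-by-side interaction of −0.38 on the log2 scale (SE 0.10, unadjusted *P* = 0.00214 and adjusted *P* = 0.323 in edgeR over all genes tested). The difference between the sides therefore did not pass the threshold. No well of any of the 10 genes stood apart from its group by Dixon's criterion for 4 samples, over 20 groups looked at.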

How the results depend on the processing

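Without a block, 35 genes and 0 of the 10 members were called. The number of genes called was 171 in DESeq2, 7 with the length offset, 596 with the replicate block and 668 with the batch block, which takes the side as a block. With either block 3 members were called. Without each well in turn, 4 to 29 genes and 0 members were called without a block. In fits chosen after seeing the data, DESeq2 with the replicate block called 278 genes and 3 members, and the batch block without each well called 273, 315, 370, 387, 393, 413, 555 and 1046 genes and 1 to 4 members. In those 8 fits *Pik3ip1* was called in 8, *Foxo3* in 7 and *Foxo1* in 6. *Foxo1* was lost without vehicle replicate 2 or 4 (log2 fold change 0.21 and 0.22, adjusted *P* = 0.0724 and 0.0767) and *Foxo3* without vehicle replicate 2 (0.18, adjusted *P* = 0.0517), and *Foxo6* was called without MCH replicate 4 (0.0311). The batch block with the length offset called 0 members, with *Foxo1* at 0.25, *Foxo3* at 0.21 and *Pik3ip1* at 0.22, against 0.24, 0.22 and 0.40 without the offset. The number of members with a log2 fold change above 0 was 8 in all 10 fits on 8 wells and 6 to 10 without each well. *Foxo1*, *Foxo3*, *Foxo6*, *Pik3ip1* and *Sesn1* stayed above 0 in all 8 fits that left out a well without a block, and *Txnip* ranged from −0.11 to 0.42 in them. *Foxo4* (−0.16 to 0.13), *Sesn3* (−0.028 to 0.14), *Ddit4* (−0.01 to 0.034) and *Irs2* (−0.082 to 0.056) also changed sign over these fits. No member was called without a block, so no called value there could reverse. At 129 to 232 estimated reads per well, *Foxo4* had the fewest reads of the factors.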
